A study of Mus musculus with 4 samples.

Results

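The immediate-early and agonist signal genes considered here were 10 genes chosen by name, namely Nr4a1, Nr4a2, Nr4a3, Egr1, Egr2, Egr3, Fos, Jun, Junb and Cd69, out of 19339 genes listed for each library. They were measured by RNA-seq in TCRβ+CD8αα+ intraepithelial lymphocytes (IELs), unconventional T cells that lie between the epithelial cells of the small intestine. There were 2 libraries from control C57BL/6 mice and 2 from mice labelled Kdm6b-deficient, numbered replicates 1 and 3 in each genotype, and each library pooled the RNA of 3 mice. Control mice carried loxP-flanked alleles of Kdm6b, a histone H3K27 demethylase gene (Kdm6bfl/fl), and the labelled Kdm6b-deficient mice carried the same alleles with a CD4Cre transgene (Kdm6bfl/fl-CD4Cre), which is expressed from the late double-negative stage of thymocytes onwards and so is not confined to IELs. Cells were sorted as CD45+CD4-TCRβ+CD8α+CD8β-. The age of these mice was not given in the sources used here, and p-values measure the spread between these pooled libraries.

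Immediate-early genes are transcribed within minutes of a stimulus without new protein synthesis. In T cells, antigen receptor signals reach them through calcium and calcineurin, which act on NFAT and MEF2 (NR4A genes among others). The signals also pass through MAP kinases, which act on serum response factor and its partners (Egr1 and Fos among others), while CD69 appears on the surface soon afterwards. Fos and Egr1 also answer growth factors and mechanical or thermal stress in most cell types, epithelial cells included, whereas Nr4a1 is widely read as a sign of antigen receptor signalling in T cells, among them the self-reactive precursors of TCRβ+CD8αα+ IELs.

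The 4 genes Egr1, Egr2, Fos and Jun followed one order across the libraries, lowest in control replicate 1, highest in the library labelled Kdm6b-deficient replicate 3 and between these in the other 2. That order was shared by 22% of all genes tested. The NR4A genes, Junb, Cd69 and Egr3 did not follow that order. Of these, Nr4a3 and Junb had the reverse extremes, highest in control replicate 1 and lowest in labelled replicate 3, as 18.1% of all genes tested did. No member passed the test by genotype or by replicate number when each was fitted alone, as in the tests below unless stated. With replicate number as a further term, 4 of 10 passed by genotype, beside 8.49% of all genes tested. With genotype as a further term, 5 of 10 passed by replicate number, beside 11.4% of all genes. Values are FPKM, fragments scaled to the length of the transcript and to all mapped fragments of the library, so that levels can be compared between genes, and differences were tested with limma on log2(FPKM + 1) over 12009 genes, with a Benjamini-Hochberg adjusted p under 0.05 as the threshold. All 10 members reached the minimum of 1 FPKM in 2 or more libraries. With 2 libraries against 2, an exact two-sided permutation test cannot go below p = 0.333 for a single gene.

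Sequences upstream of 4 members with high levels are shown because they carry TGACG, the half-site of the cyclic AMP response element that CREB and ATF proteins bind. Each run is the 250 bases before an annotated start (RefSeq, GRCm38.p6, 5′ to 3′ on the strand of the gene), and capitals mark TGACG on either strand. The windows are chr12:85473640-85473889 on the plus strand for Fos, chr8:84978749-84978998 on the minus strand for Junb, chr15:101266596-101266845 on the plus strand for Nr4a1 and chr2:57124004-57124253 on the minus strand for Nr4a2.
Fos: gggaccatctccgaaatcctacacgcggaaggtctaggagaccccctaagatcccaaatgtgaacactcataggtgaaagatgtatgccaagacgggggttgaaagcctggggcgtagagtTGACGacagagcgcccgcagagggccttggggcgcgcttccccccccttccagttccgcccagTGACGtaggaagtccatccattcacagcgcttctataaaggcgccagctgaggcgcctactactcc
Junb: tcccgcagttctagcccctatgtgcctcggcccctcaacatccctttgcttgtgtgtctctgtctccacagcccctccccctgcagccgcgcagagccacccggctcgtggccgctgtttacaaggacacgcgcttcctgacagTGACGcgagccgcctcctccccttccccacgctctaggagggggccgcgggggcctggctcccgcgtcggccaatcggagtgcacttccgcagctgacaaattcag
Nr4a1: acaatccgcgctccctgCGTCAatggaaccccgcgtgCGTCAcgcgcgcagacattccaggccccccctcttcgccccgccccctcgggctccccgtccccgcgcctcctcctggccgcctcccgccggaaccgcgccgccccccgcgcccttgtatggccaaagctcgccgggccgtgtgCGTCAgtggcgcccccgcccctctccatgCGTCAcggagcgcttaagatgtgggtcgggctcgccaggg
Nr4a2: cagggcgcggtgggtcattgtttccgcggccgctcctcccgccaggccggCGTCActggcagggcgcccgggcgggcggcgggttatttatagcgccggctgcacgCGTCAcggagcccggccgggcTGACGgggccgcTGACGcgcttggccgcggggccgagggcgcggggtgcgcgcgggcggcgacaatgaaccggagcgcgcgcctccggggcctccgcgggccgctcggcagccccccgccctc

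Nr4a1 and Nr4a2 held 4 matches to TGACG each, Fos held 2, at 129 to 125 and 66 to 62 bases before its start, and Junb held 1, at 106 to 102 bases. Nr4a3 also held 4, Egr2 held the same 2 sites in 3 overlapping windows of its 5, and Jun held none in its window. Over 32851 windows of the same length from all annotated starts, 17.8% held TGACG on at least 1 strand. The full palindrome TGACGTCA, which contains TGACG and was in 1.55% of all windows, and the AP-1 site TGANTCA, in 6.75%, were in none of the 11 windows matched to 7 members. The EGR site GCGNGGGCG, in 4.70% of all windows, was present in those of Nr4a1 and Nr4a2. A CArG box, the site of serum response factor that 1.47% of all windows hold, was found among the members only upstream of Egr2, at 2 different sites. The first lay 72 to 63 bases before a start at 67537566, and the other is shown here in capitals with its flanks, at chr10:67537787-67537816 on the plus strand, 72 to 63 bases before a start at 67537869.
Egr2: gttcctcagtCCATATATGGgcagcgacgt
There was no window for Egr1, Egr3 or Cd69. A match in these windows is a description of letters and not of binding.

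Before the members are described, the libraries themselves require a few values. Kdm6b was at 16.5 and 16.0 FPKM in control replicates 1 and 3, and at 18.2 and 11.1 FPKM in the libraries labelled Kdm6b-deficient replicates 1 and 3. Its level in labelled replicate 1 was above both controls, so directions below are those of the labels, and whether these gene-level values include the deleted exons was not checked. The summed level of 7 T cell markers (Cd3d, Cd3e, Cd3g, Cd247, Cd8a, Ptprc and Itgae) was 4393 and 3556 FPKM in control replicates 1 and 3 and 3450 and 2583 FPKM in labelled Kdm6b-deficient replicates 1 and 3. The sum of 22 epithelial markers, such as Epcam and Krt8, whose cells a CD45+TCRβ+ gate should leave out, was 2064 and 8205 FPKM in the controls and 6406 and 17506 FPKM in the labelled Kdm6b-deficient libraries, and all 22 were lowest in control replicate 1, highest in labelled replicate 3 and at 0 in none. Cd4, barred by the gate, was at 30.6 and 30.5 FPKM in replicates 1 and at 10.1 and 3.17 FPKM in replicates 3, whereas Cd8b1, the other barred coreceptor gene, was between 0 and 1.64 FPKM. Sums over other cell types were 1588 to 2261 FPKM for 8 myeloid markers, of which Fcer1g, also expressed by IELs, gave the most, 31.6 to 84.8 FPKM for 6 B cell markers and 14.3 to 19.2 FPKM for 7 fibroblast and endothelial markers. In RNA of bulk samples, fewer cells of a type and less RNA per cell cannot be told apart.

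The NR4A genes encode orphan nuclear receptors. Nr4a1 was at 329 and 314 FPKM in control replicates 1 and 3, and at 373 and 255 FPKM in labelled Kdm6b-deficient replicates 1 and 3. The labelled libraries thus lay on either side of the controls, and the genotype difference was −0.06 ± 0.24 on the log2 scale (SE, n = 2 and 2, limma adjusted p = 0.958). Both replicate 3 libraries were below both replicate 1 libraries, by a log2 difference of −0.31 ± 0.19 (limma adjusted p = 0.567), and Nr4a1 stayed among the most abundant transcripts, between ranks 227 and 400 of 19339.

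Nr4a2 was the member with the lowest p by genotype in the fit without a replicate term, while Egr1, Fos and Jun had a lower p with it. Nr4a2 was at 218 and 231 FPKM in the controls and at 159 and 124 FPKM in labelled Kdm6b-deficient replicates 1 and 3. Both labelled libraries were below both controls, which was also the case for 18.6% of all genes tested. The log2 difference was −0.67 ± 0.20 with an unadjusted limma p of 0.0157 and an adjusted p of 0.755, and it kept its sign when the libraries were scaled to Cd3 genes and Ptprc (−0.25) and without any single library (−0.85 to −0.49). The ratio of Nr4a1 to Nr4a2 within a library, which does not depend on such scaling, was 1.51 and 1.36 in the controls and 2.34 and 2.06 in the labelled Kdm6b-deficient libraries. Divided by Ptprc, the pan-leukocyte gene for CD45, the level of Nr4a2 was 0.530 and 0.595 in the controls and 0.421 and 0.462 in the labelled libraries. Divided by Cd3e it was 0.431 and 0.658 in the controls and 0.445 and 0.408 in the labelled libraries, where the groups overlapped.

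Nr4a3 was far less abundant than Nr4a1 and Nr4a2, at 9.19 and 7.81 FPKM in control replicates 1 and 3 and 8.79 and 5.22 FPKM in labelled Kdm6b-deficient replicates 1 and 3. Its genotype groups overlapped (log2 difference −0.28 ± 0.33, limma adjusted p = 0.843), and both replicates 3 were below both replicates 1 (−0.43 ± 0.29, adjusted p = 0.584). Its share of the summed NR4A level was 1.36% to 1.65%, while that of Nr4a2 was 39.2% and 41.8% in the controls and 29.4% and 32.3% in the labelled libraries. Replicate 3 lay below replicate 1 on average for Nr4a1, Nr4a2 and Nr4a3 alike, but for Nr4a1 and Nr4a2 that sign flipped when the libraries were scaled to Cd3 genes and Ptprc (0.12 and 0.29), a scaling that raised the median of all genes by 0.38 by genotype and 0.39 by replicate number. Relative to that shift, the differences by replicate number were −0.27 for Nr4a1, −0.10 for Nr4a2 and −0.45 for Nr4a3.

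**Figure D1:**
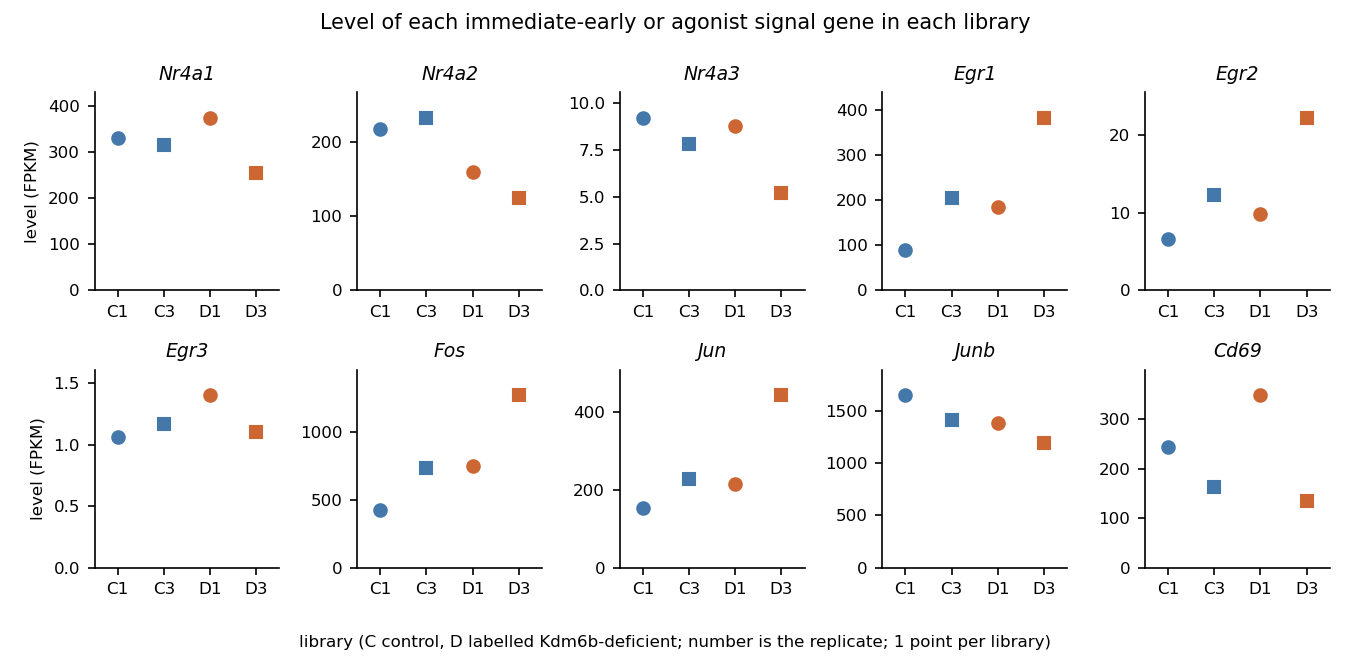
Level in FPKM (vertical axes, each from 0) of each of the 10 genes in control replicates 1 and 3 (C1, C3) and labelled Kdm6b-deficient replicates 1 and 3 (D1, D3), with 1 point per library and no error bars. Egr1, Egr2, Fos and Jun are lowest in C1 and highest in D3, Nr4a2 is lower in D1 and D3 than in C1 and C3, and Cd69 is highest in D1 (348 FPKM) and lowest in D3 (135 FPKM).

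The EGR genes encode zinc finger transcription factors that bind a GC-rich site, and Egr1 is induced by MAP kinase signalling. Egr1 was at 90.6 FPKM in control replicate 1, 205 FPKM in control replicate 3, 184 FPKM in labelled Kdm6b-deficient replicate 1 and 382 FPKM in labelled replicate 3, a range of 4.22 times. Control replicate 3 and labelled replicate 1 lay close together, so the groups overlapped by genotype, but not by replicate number. The log2 difference was 0.96 ± 0.50 by genotype (limma adjusted p = 0.755) and 1.11 ± 0.43 by replicate number (adjusted p = 0.524), and Egr1 by replicate number was the only member value past a log2 difference of 1, where 6.25% of all genes tested were above 1 and 1.39% below −1. With single libraries left out, these differences ranged from 0.37 (without control replicate 1) to 1.54 (without control replicate 3) and from 0.60 (without control replicate 1) to 1.62 (without labelled replicate 1). By genotype 0 members were above 1 (6.2% of all genes) or below −1 (0.441%).

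Egr2 had 6.62 and 12.3 FPKM in the controls and 9.82 and 22.2 FPKM in labelled Kdm6b-deficient replicates 1 and 3. It overlapped by genotype (0.65 ± 0.47 on the log2 scale, limma adjusted p = 0.770), and both replicates 3 were above both replicates 1 (0.95 ± 0.36, adjusted p = 0.524), as 22.3% of all genes tested were. Leaving out labelled replicate 3 gave the lowest values, 0.11 and 0.55, and leaving out labelled replicate 1 and control replicate 3 the highest, 1.204 and 1.351. Egr2 and Egr3 are the EGR genes best known for restraining T cell activation. Egr3 was barely detected, between 1.06 and 1.4 FPKM and ranks 11273 to 11952 of 19339, with overlapping groups in both comparisons, and Egr1 made up 92.2% to 94.3% of the summed EGR level in each library.

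The AP-1 members encode basic leucine zipper proteins that pair with each other, FOS only with JUN proteins and JUN and JUNB also among themselves. Fos was at 427 and 733 FPKM in control replicates 1 and 3 and at 749.8 and 1268 FPKM in labelled Kdm6b-deficient replicates 1 and 3. It was the only member with both labelled libraries above both controls, as 18.4% of all genes tested were, but labelled replicate 1 exceeded control replicate 3 by only 1.02 times. The log2 difference was 0.80 ± 0.38 by genotype (limma adjusted p = 0.755) and 0.77 ± 0.38 by replicate number (adjusted p = 0.524), where the groups overlapped. They were lowest without control replicate 1 (0.41 and 0.36), and highest without control replicate 3 by genotype (1.19) and without labelled replicate 1 by replicate number (1.17).

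Jun was at 153 and 227 FPKM in the controls and at 214 and 441 FPKM in labelled Kdm6b-deficient replicates 1 and 3. Labelled replicate 1 fell between the controls, and both replicates 3 were above both replicates 1. Its log2 difference was 0.72 ± 0.39 by genotype (limma adjusted p = 0.755) and 0.81 ± 0.35 by replicate number (adjusted p = 0.524). Without labelled replicate 3 these were 0.20 and 0.33, and their highest values were 1.24 (without labelled replicate 1) and 1.28 (without control replicate 3).

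Junb was the most abundant member in 3 of the 4 libraries, at 1644 and 1413 FPKM in control replicates 1 and 3 and 1383 and 1188 FPKM in labelled Kdm6b-deficient replicates 1 and 3. Unlike Fos and Jun it had both labelled libraries below both controls, but its log2 difference of −0.25 ± 0.25 (limma adjusted p = 0.816) flipped to 0.17 when the libraries were scaled to Cd3 genes and Ptprc, or −0.21 relative to the shift of all genes. Divided by Ptprc, Junb was at 4.01 and 3.63 in the controls and 3.66 and 4.43 in the labelled libraries, without separation by genotype. Of the summed level of Fos, Jun and Junb, Junb made up 73.9% in control replicate 1, 59.5% in control replicate 3, 58.9% in labelled replicate 1 and 41.0% in labelled replicate 3. In that last library Fos exceeded Junb (ratio of 1.07, against 0.260 to 0.542 in the other 3 libraries).

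Cd69, on chromosome 6 (129267324 to 129275375), encodes a C-type lectin that retains lymphocytes in tissue by holding down the receptor S1PR1, and it is kept high on IELs. It was at 243 and 162 FPKM in control replicates 1 and 3, and at 348 and 135 FPKM in labelled Kdm6b-deficient replicates 1 and 3. The labelled libraries were the highest and the lowest of the 4, with a log2 difference by genotype of 0.13 ± 0.47 (limma adjusted p = 0.957) that turned to −0.55 without labelled replicate 1 and to 0.81 without labelled replicate 3. Both replicates 3 were below both replicates 1, as were 22.8% of all genes tested, and the log2 difference was −0.97 ± 0.23. Its unadjusted limma p was 0.00627 and its adjusted p was 0.524. Cd4 was ordered by replicate number in the same way, and Cd69 divided by Cd3e was 0.974 in labelled replicate 1 and 0.444 to 0.481 in the other 3 libraries. The part of cells that escaped the gate in the Cd69 values was not tested.

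Over all members, 6 had a positive and 4 a negative log2 difference by genotype, with a median of 0.11 beside 0.00 over all genes tested. Of the 10, 0 were called by limma, as were 0 of 12009 genes (0%), and 1 (Nr4a2) had an unadjusted p under 0.05, as did 5.35% of all genes. By replicate number 4 were positive and 6 negative, with a median of −0.10 beside −0.01, 0 were called (0% of all genes) and 3 (Egr1, Egr2 and Cd69) had an unadjusted p under 0.05, as did 9.07% of all genes. Groups did not overlap by genotype for Nr4a2 and Junb (lower, 18.6% of all genes) and Fos (higher, 18.4%). By replicate number they did not overlap for Nr4a1, Nr4a3 and Cd69 (lower in replicates 3, 22.8%) and for Egr1, Egr2 and Jun (higher, 22.3%). Both medians average genes with differences of opposite sign, and they changed sign with the library left out.

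**Figure D2:**
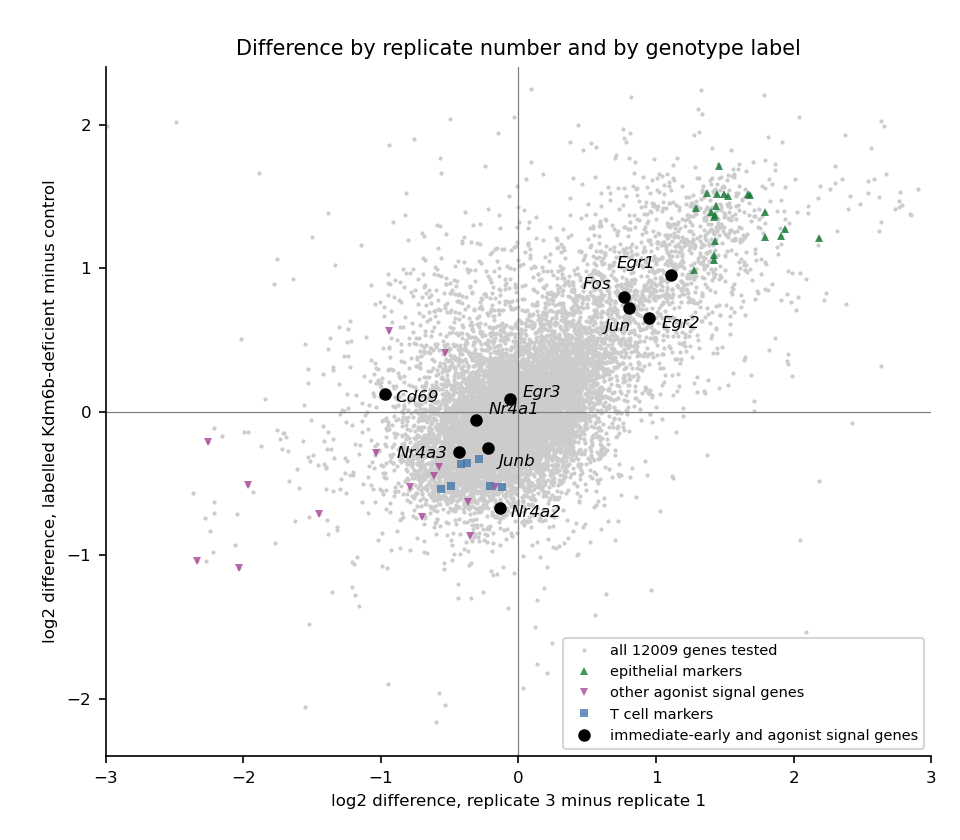
Log2 difference of group means by replicate number (horizontal axis, replicate 3 minus replicate 1) and by genotype label (vertical axis, labelled Kdm6b-deficient minus control), on log2(FPKM + 1), for the 10 members (black), 22 epithelial markers, 7 T cell markers, 15 other agonist signal genes and all 12009 genes tested (grey), of which 26 lie outside the axes. Egr1, Egr2, Fos and Jun lie at positive values on both axes, as the epithelial markers do, Cd69 lies at −0.97 on the horizontal axis, and Nr4a2 has the lowest vertical value of the members, −0.67.

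Egr1, Egr2, Fos and Jun had the same 2 libraries at the extremes as the 22 epithelial markers, an order (control replicate 1 lowest, labelled Kdm6b-deficient replicate 3 highest) that 22% of all genes tested shared. Relative to control replicate 1, the epithelial sum was 3.98 times in control replicate 3, 3.1 times in labelled replicate 1 and 8.48 times in labelled replicate 3, while Egr1 was at 2.26, 2.04 and 4.22 times and Fos at 1.72, 1.75 and 2.97 times. The ratio of Egr1 to Epcam was 0.959 and 0.894 in the controls and 0.985 and 0.835 in the labelled libraries, and Epcam is 1 of the 22 markers. As a percentage of the epithelial sum, Egr1 was 4.39% and 2.501% in control replicates 1 and 3 and 2.88% and 2.18% in labelled replicates 1 and 3, so that it did not keep pace with the sum. Fos was 20.7% of that sum in control replicate 1 and 7.25% to 11.7% in the other 3 libraries. Fos to Epcam ranged from 2.77 to 4.52 and Jun to Epcam from 0.965 to 1.62, both highest in control replicate 1. The part of epithelial RNA in these 4 genes was not tested.

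Control replicate 3 and labelled Kdm6b-deficient replicate 1 came closest in epithelial marker level, with a ratio of labelled to control of 0.781. Between these 2 libraries the ratio was 0.899 for Egr1, 0.800 for Egr2, 1.02 for Fos, 0.942 for Jun and 0.978 for Junb. It was 1.19 for Nr4a1, 1.13 for Nr4a3 and 0.687 for Nr4a2, and it was 2.15 for Cd69. The 2 libraries also differ in replicate number, by which Cd69 and Cd4 were ordered, so these are not ratios by genotype alone. With 1 library on each side, these ratios carry no test.

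**Figure D3:**
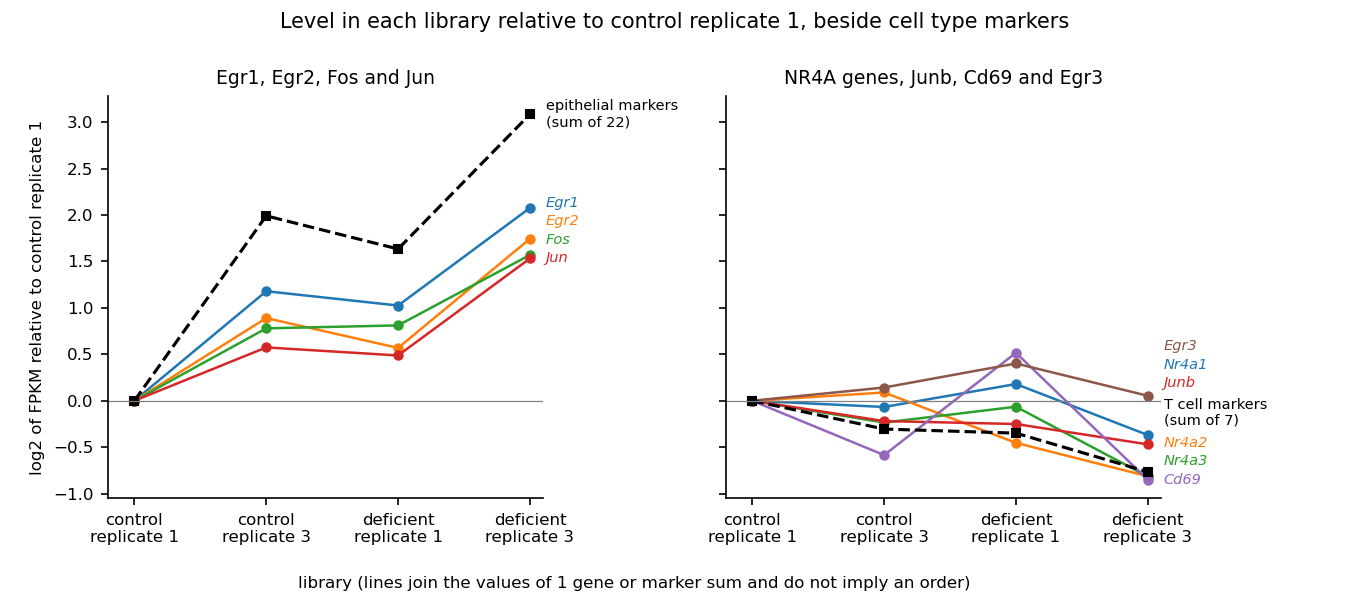
Level in each library relative to control replicate 1 (vertical axis, log2 of the FPKM ratio, 0 is equal), for Egr1, Egr2, Fos and Jun beside the sum of 22 epithelial markers (left) and for the other 6 members beside the sum of 7 T cell markers (right), with 1 point per gene and library. The 4 genes on the left have their lowest and highest library where the epithelial sum does and reach between 1.53 and 2.08 in labelled replicate 3, whereas those on the right stay between −0.85 and 0.52.

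Heat shock genes, which encode chaperones induced by protein damage and handling, were compared because they often accompany Fos and Jun. All 9 listed had a positive log2 difference by genotype (median 0.32, beside 0.00 over all genes) and 8 of 9 by replicate number (median 0.25), and 0 were called by limma. Hspa1a was at 238 and 223 FPKM in the controls and 352 and 552 FPKM in labelled Kdm6b-deficient replicates 1 and 3 (log2 difference 0.93 ± 0.26, adjusted p = 0.755), though its reads can be shared with the near-identical Hspa1b. The cochaperone gene Bag3 was at 2.41, 4.95, 4.80 and 9.16 FPKM in control 1, control 3, labelled 1 and labelled 3. The part of handling in the AP-1 and EGR values was not tested.

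Other AP-1 and related bZIP genes were also of both signs. Of 9 tested, 5 were positive and 4 negative by genotype (median 0.09), 4 positive and 5 negative by replicate number (median −0.20), and 0 were called. Atf3, a stress-induced partner of AP-1 proteins, was at 71.9 and 109 FPKM in the controls and at 150.4 and 233 FPKM in labelled replicates 1 and 3 (log2 difference 1.07 ± 0.31, limma adjusted p = 0.755), and Fosl1 was at 1.70 and 4.41 FPKM in the controls against 6.39 and 7.44 FPKM. Batf, whose protein works with IRF4 in lymphocytes, was at 122.5 and 72.0 FPKM in control replicates 1 and 3 and 98.0 and 41.2 FPKM in labelled replicates 1 and 3. Both replicates 3 were below both replicates 1 for Batf (−0.99 ± 0.30, adjusted p = 0.524), and for Jund (between 2.85 and 6.29 FPKM).

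Among other early-induced transcription factors, 7 of 13 tested were positive by genotype and 5 of 13 by replicate number, with 0 called. Ier3, a survival gene, and Klf4, a zinc finger factor abundant in epithelium, were higher in both labelled libraries, at 9.90 and 12.2 FPKM for Ier3 against 4.72 and 7.55 FPKM in the controls, and at 8.66 and 9.60 FPKM for Klf4 against 4.52 and 5.93 FPKM. Irf4, which scales with antigen receptor signal in T cells, was at 8.82 and 5.39 FPKM in the controls and 14.5 and 2.96 FPKM in labelled replicates 1 and 3, and Bhlhe40 at 232 and 189 and at 314 and 159 FPKM. Both had their maximum in labelled replicate 1 and their minimum in labelled replicate 3, as Cd69 did.

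Feedback regulators include the DUSP phosphatases that inactivate MAP kinases, Sprouty proteins and inhibitors of NF-κB. By genotype 12 of 28 were positive (median −0.04). By replicate number 25 of 28 were negative (median −0.38), but 13 of 28 when scaled to Cd3 genes and Ptprc (median 0.04, or −0.34 relative to the shift of all genes). Unscaled, 17 of 28 had both replicates 3 below both replicates 1 beside 22.8% of all genes tested, and 0 were called. With genotype as a further term, 8 of 28 were called by replicate number, 7 lower and 1 higher, beside 3.31% and 8.04% of all genes. Dusp2, a phosphatase of activated lymphocytes, was at 35.2 and 22.5 FPKM in control replicates 1 and 3 and 51.6 and 17.9 FPKM in labelled replicates 1 and 3. Dusp5 was at 28.1, 16.0, 35.6 and 14.5 FPKM in the same order of libraries. Dusp10 was lower in both labelled libraries (45.8 and 36.0 FPKM, against 68.2 and 61.8 FPKM), with a log2 difference of −0.66 ± 0.20 (limma adjusted p = 0.755), and Spry1 was at 3.47 and 5.02 FPKM in the controls against 5.09 and 12.1 FPKM.

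The 15 other surface and lineage genes of agonist signalling were below 0 in log2 difference by replicate number (15 of 15, median −0.79, and 12 of 15 with a median of −0.37 when scaled to Cd3 genes and Ptprc). Relative to the shift of all genes that median was −0.76. Unscaled, 11 of 15 had both replicates 3 below both replicates 1, beside 22.8% of all genes tested, and 0 were called. With genotype as a further term, 9 of 15 were called by replicate number, all lower, beside 3.31% of all genes called lower. By genotype 13 of 15 were negative (median −0.52), and 11 of 15 with that scaling (median −0.11, or −0.49 relative to the shift). Cd5, an inhibitory receptor whose level follows the strength of selection, was at 37.0 and 19.3 FPKM in the controls and at 37.9 and 3.38 FPKM in labelled replicates 1 and 3. The costimulatory receptor Icos was at 23.8, 11.4, 29.5 and 1.39 FPKM and Tnfrsf4, the gene for OX40, at 65.7, 23.9, 101.5 and 11.01 FPKM in the same order of libraries. Cd4 was at 30.6, 10.1, 30.5 and 3.17 FPKM in these libraries, and the part of CD4+ cells in the values of these genes was not tested.

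Of the 18 upstream regulators, 12 were negative by genotype and 12 by replicate number (medians −0.08 and −0.20), and 0 were called. Scaled to Cd3 genes and Ptprc, the medians relative to the shift of all genes were −0.05 and −0.20. Srf, the gene for serum response factor, was at 3.48 and 3.5 FPKM in the controls and 6.55 and 5.08 FPKM in labelled replicates 1 and 3. Elk4, a partner of it, was at 37.2 and 22.5 FPKM against 31.0 and 23.5 FPKM, and Mkl2, a coactivator of it, was lowest in control replicate 1 (2.92 FPKM) and between 4.61 and 6.29 FPKM in the others.

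**Figure D4:**
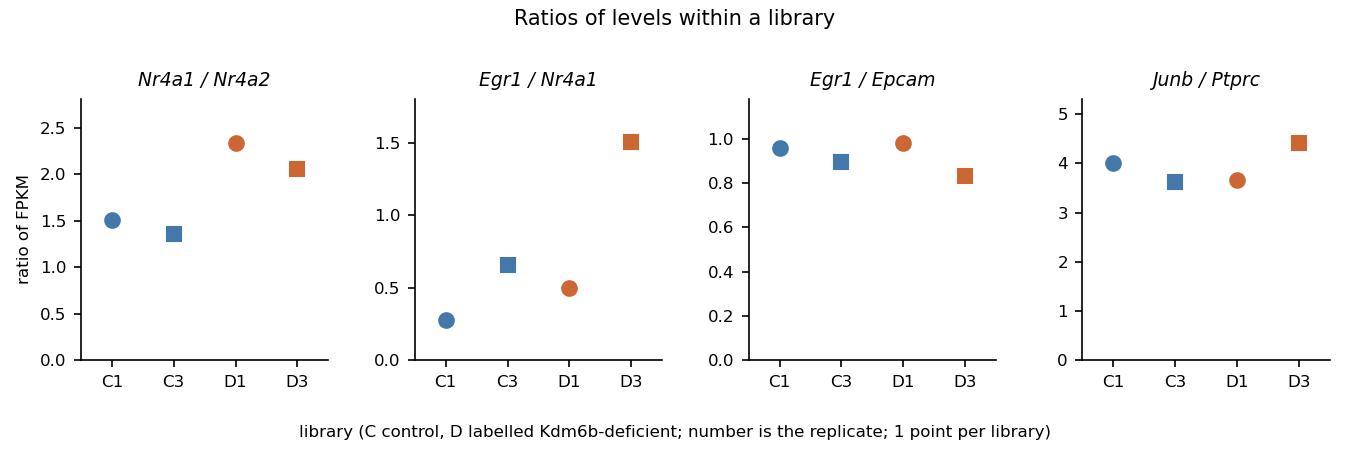
Ratios of FPKM between 2 genes within a library (vertical axes, each from 0) in control replicates 1 and 3 (C1, C3) and labelled Kdm6b-deficient replicates 1 and 3 (D1, D3), with 1 point per library. Nr4a1 to Nr4a2 is higher in both labelled libraries (2.34 and 2.06, against 1.51 and 1.36), Egr1 to Nr4a1 runs from 0.275 in C1 to 1.5 in D3, Egr1 to Epcam stays between 0.835 and 0.985, and Junb to Ptprc stays between 3.63 and 4.43. Epcam is 1 of 22 epithelial markers, and as a percentage of their sum, not plotted, Egr1 was 4.39% in C1 and 2.18% in D3.

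The 8 tested genes with the smallest distance over the 4 libraries from the mean centred profile of the members were Rufy1, Psmd7, Lekr1, Mrpl49, Ciao2a, Ywhaq, Sar1b and Nsun5, at Euclidean distances of 0.018 to 0.039 in log2(FPKM + 1). That mean profile averages opposite movements and spans only −0.22 to 0.13, so that likeness to it describes no single member.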

How the data were processed

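RNA-seq was available for 4 libraries of sorted small intestinal TCRβ+CD8αα+ IELs, 2 per genotype label. The authors aligned reads (HISAT, Bowtie2) to the mm10 build, ran RSEM for quantification, and deposited the values as FPKM for 19339 genes (the submitters' processing notes name Bowtie2 2.2.5 and RSEM 1.2.8, and GRCm38.p5). FPKM is scaled to transcript length and mapped fragments, so a rise of abundant transcripts lowers the rest. Total reads are unknown here. From the smallest steps between low values, depth relative to control replicate 1 was 0.985 in control replicate 3, 1.00 in labelled Kdm6b-deficient replicate 1 and 0.833 in labelled replicate 3.

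Symbols came from RefSeq GRCm38.p6, which matched 18467 identifiers. Values were used as log2(FPKM + 1) for the 12009 genes that reached 1 FPKM in 2 or more libraries, without further scaling, and fold differences on this scale understate those of low genes. Genes were tested with limma 3.58.1 (R 4.3.3, lmFit and eBayes with trend), with Benjamini-Hochberg adjustment over all genes tested. The fit was checked on simulated data that held no difference by replicate number, so the check does not cover data with such a difference. Groups came from the genotype labels and replicate numbers from the sample titles. The remaining steps used Python 3.11.15 (pandas 2.3.3, numpy 2.4.6).

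The members and lists were chosen with earlier results of these data known. From each other list, the 2 genes with the largest absolute difference by genotype and the 2 by replicate number were named, except 1 gene that is not reported here. Alternatives were the pseudocount, the filter, median-of-ratios and quantile scaling, scaling to Cd3 genes and Ptprc, limma without trend, the replicate number or genotype as a further term, and leaving out each library. Motifs were searched by exact letters on both strands. Protein sequences were not used here.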

Additional observations from a re-analysis of the deposited data

How the results depend on the processing

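No gene passed the threshold by genotype under any scaling, filter, pseudocount or variance model, nor without any single library (0 to 0 genes). By replicate number there were 0 to 3 genes, the 3 without labelled Kdm6b-deficient replicate 1. The labels do not say what replicate numbers mark and there are only 2 pairs. The differences of replicate 3 from replicate 1 in the 2 genotypes had a Pearson r of 0.56 across 12009 genes, which are not independent. With the replicate block, 1019 genes passed by genotype (8.49%; 7.38% higher and 1.11% lower), among them Egr1 (adjusted p = 0.00226), Fos (0.00579) and Jun (0.0154), higher, and Nr4a2 (0.02), lower. With genotype as a term, 1364 passed by replicate number (11.4%, with 8.04% higher and 3.31% lower), among them Egr1 (0.000684), Egr2 (0.0208), Fos (0.00583), Jun (0.0078), higher, and Cd69 (0.00696), lower. In the other lists, those passing by genotype with the block were 1 of 9 other AP-1 and bZIP genes, 1 of 13 early-induced factors and 4 of 28 feedback regulators. They were 4 of 15 agonist signal genes, 1 of 18 upstream regulators and 1 of 9 heat shock genes. By replicate number with genotype as a term, they were 2, 3, 8, 9, 0 and 1 in the same order of lists. The median of the members was 0.106 by genotype and −0.097 by replicate number. It was −0.031 and −0.205 under quantile normalization, 0.454 and 0.251 under scaling to Cd3 genes and Ptprc, and −0.172 to 0.191 and −0.213 to 0.139 without single libraries. The Cd3 and Ptprc scaling moved genes upwards (by a median of 0.38 by genotype and 0.39 by replicate number), and relative to this shift the medians of the members were 0.07 and −0.14. By construction it also turned small negative differences positive by genotype (Nr4a1 0.36, Nr4a3 0.089, Junb 0.17, Kdm6b 0.22, Elk4 0.31, Irf4 0.33, Tnfrsf4 0.19) and by replicate number (Nr4a1 0.12, Nr4a2 0.29, Egr3 0.17, Junb 0.21, Kdm6b 0.044, Dusp10 0.18, Srf 0.20). Relative to the shift all of these kept their sign, while Egr3 by genotype was at −0.07. Egr3 was −0.12 by genotype under quantile normalization, and it could not be tested with a filter of 5 FPKM. Leaving out single libraries turned the sign by genotype of Nr4a1 (−0.33 to 0.21), Nr4a3 (−0.61 to 0.047), Egr3 (−0.0098 to 0.18), Cd69 (−0.55 to 0.81), Kdm6b (−0.52 to 0.16), Batf (−1.17 to 0.061), Bhlhe40 (−0.39 to 0.58), Cd5 (−2.66 to 0.49), Dusp2 (−0.63 to 0.85), Dusp5 (−0.52 to 0.72), Elk4 (−0.45 to 0.25), Icos (−2.88 to 0.80), Irf4 (−1 to 0.97), Jund (−0.083 to 0.69), Mkl2 (−0.16 to 0.71) and Tnfrsf4 (−1.76 to 1.33), and by replicate number that of Nr4a2 (−0.58 to 0.31), Egr3 (−0.17 to 0.051), Dusp10 (−0.62 to 0.14), Fosl1 (−0.13 to 1.32), Hspa1a (−0.37 to 0.93), Ier3 (−0.037 to 0.89), Klf4 (−0.17 to 0.63) and Srf (−0.53 to 0.22). None of these had passed the test. A group left with 1 library was assumed to vary like the other.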

Other observations

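The genes nearest in profile to the mean of Egr1, Egr2, Fos and Jun, a group formed after the values were seen, began with BGI_novel_G000033 and Nipal1. Sema4a, at place 3, had 6.63 and 12.3 FPKM in control replicates 1 and 3, and 11.5 and 24.0 FPKM in labelled Kdm6b-deficient replicates 1 and 3. In that order of libraries, St14 at place 5, a membrane serine protease gene of epithelia, had 8.39, 16.0, 14.4 and 31.2 FPKM. Ctnnd1 at place 9, the gene for p120 catenin of cell junctions, had 4.10, 7.87, 7.37 and 16.5 FPKM. Scamp1, Raph1, Aig1 and Gm45871 were also among the first 9, and no rule chose which genes were named here. Those nearest to the mean of Cd69 and Nr4a3 began with Picalm, Prdm4, Isg20, Mllt6, Rab12 and Kcna3. Prdm1, the gene for BLIMP1 (17.1, 12.1, 18.2 and 8.78 FPKM), was at place 7. The chemokine receptor gene Cxcr6 (211, 153, 227 and 112 FPKM) was at place 8. Those nearest to Nr4a2 began with Rdh12, Tmem273, Repin1 and Trim5. Trat1, which encodes an adaptor of the T cell receptor, was at place 6 (43.6 and 43.2 FPKM in the controls, and 30.2 and 22.02 FPKM in the labelled libraries). These are descriptions of 4 libraries, with no test.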
